A study of Mus musculus with 6 samples.

Results

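Mitosis and cytokinesis genes encode the cyclins, kinases, kinetochore and spindle proteins, condensins and cytokinesis factors that a cell makes as it enters and completes division. The 48 genes described here were chosen by gene symbol from a list of known G2 and M phase genes, with earlier results of these data known. All 48 were found among the 41079 genes in the deposited count and FPKM tables. All 48 had enough counts to be among the 14618 genes tested. Microglia, the resident macrophages of the brain, were prepared from the brains of neonatal C57Bl/6N mice aged 1-3 days. The brains of several neonates were pooled in each culture flask, and both conditions shared the same expansion with 20% L-929 conditioned medium, a source of the growth factor M-CSF, on set days from day 8 to day 29, and collection by shaking the flasks. The flasks were shaken more than once, and which harvest gave these libraries is not given in the sources used here. The 3 control libraries came from microglia in serum-free DMEM/F12. The 3 optimized libraries, labelled as stimulated, came from microglia given human TGF-β1, human IL-34 and CX3CL1 at 100 ng/mL each. The methods of the study add cholesterol, insulin-transferrin-selenium and a collagen IV coating to the optimized condition, which the labels do not name. The time that these microglia spent in either medium before lysis is not given in the sources used here. The study describes the libraries of a condition as biological replicates, while the labels number them and do not name separate cultures.

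Entry into mitosis is driven by the kinase Cdk1 bound to a B-type cyclin. Chromosomes are then condensed, attached through kinetochores to spindle microtubules, held until the spindle checkpoint is satisfied and separated once the anaphase-promoting complex marks cyclin B and securin for destruction. Cytokinesis, organized by the central spindle, then cleaves the cell. Most of these genes are transcribed in a burst in G2 and M phase, so their messages are widely used as markers of dividing cells, and microglia divide in response to ligands of the Csf1r receptor such as M-CSF and IL-34.

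The mitosis and cytokinesis genes were lower in the optimized libraries almost throughout the list. With edgeR's quasi-likelihood test, 43 of the 48 genes passed an adjusted p-value of 0.05 as lower, against 15.2% of all genes tested, and 0 as higher, against 14.7%. In either direction 29.8% of all genes tested passed. At an unadjusted p-value under 0.05 the counts were 44 lower and 0 higher among the 48, against 2895 and 2862 of the 14618 genes tested. DESeq2 gave 43 and 0, against 2290 and 2241, and limma on log2(FPKM + 0.1) gave 44 and 0, against 3262 and 1486. The median log2 fold change, optimized minus control, was -0.94 over the 48 genes and 0.0079 over all genes tested. Among the 48, 23 passed the test with a log2 fold change of -1 or less, against 5.11% of all genes tested. In 44 genes every optimized library lay below every control library after scaling to library composition, which held for 22.5% of all genes tested, and in 0 genes every one lay above, which held for 21.4%. The extremes were Kif23, a central spindle kinesin, at -1.93 and Cdc25b, a phosphatase that activates Cdk1, at 0.11. In bulk RNA of this kind, fewer dividing cells and less of each message per cell cannot be told apart.

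The 48 genes took 0.0754% ± 0.00504 (SD, n = 3) of all counts in the control libraries and 0.0394% ± 0.00322 in the optimized libraries. Their summed counts were 16854, 17899 and 18976 in control libraries 1 to 3 and 8749, 9423 and 8658 in optimized libraries 1 to 3. Scaled CPM, the counts divided by the library total and its TMM factor, summed to 720 ± 22.7 and 411 ± 9.14, a ratio of 1.75. The lowest control library, at 694, lay above the highest optimized library, at 418.

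**Figure D1:**
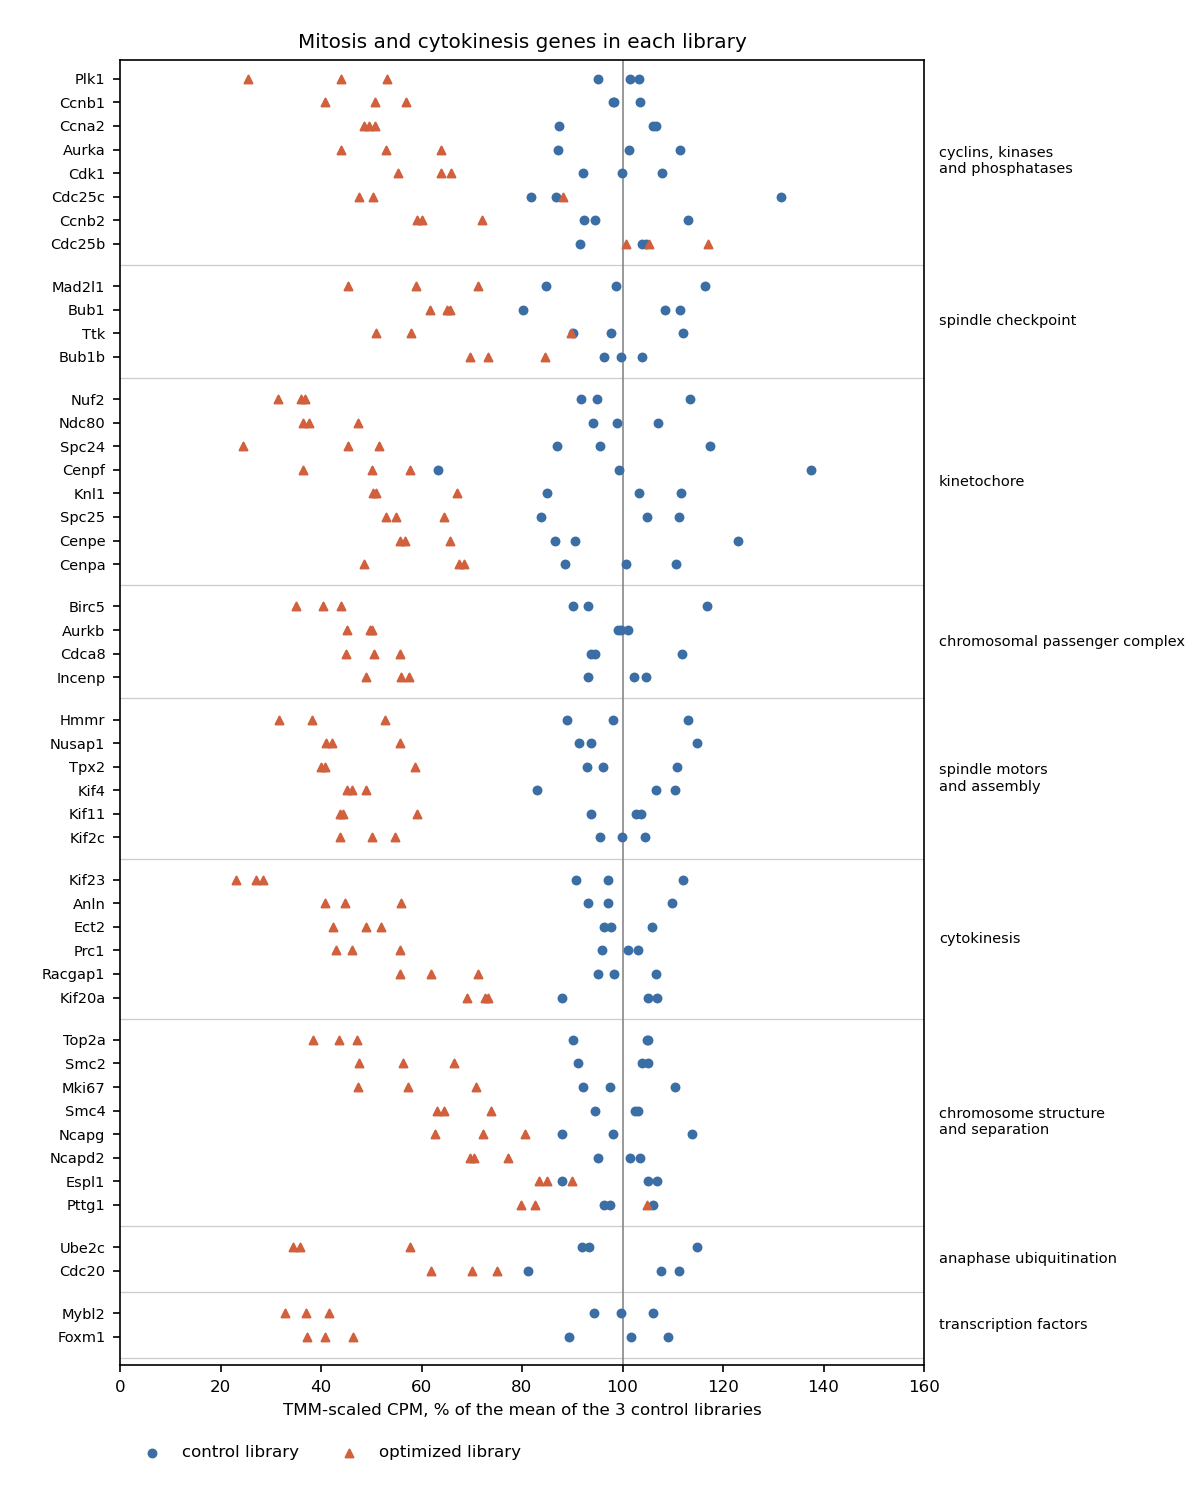
Scaled CPM of each of the 48 genes in each of the 6 libraries, as a percentage of that gene's control mean, grouped by role. The optimized level fitted by edgeR ran from 26.3% of control for Kif23 to 108% for Cdc25b, and in 44 genes the 3 optimized points lie below the 3 control points.

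The libraries held between 20628148 and 27261839 counts. Within a condition the libraries were farther apart than counting noise, with a chi-square per gene of 10.7 to 78.3 where noise alone gives about 1, so none was counted as a copy of another. The lysosomal protease gene Ctsd alone took between 2.06% and 2.37% of the counts in control libraries and between 5.04% and 7.11% in optimized libraries. Scaling by library size alone moved the median log2 fold change of all genes by -0.13 and the share of higher genes among those called from 49.1% to 32.2%, and limma on FPKM gave shares between 28.4% and 31.3%. The mitosis and cytokinesis genes were still 43 lower and 0 higher under library size alone, with a median of -1.07. With that scaling 3183 of all genes tested were lower and 1513 higher.

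The promoters of these genes are known for the cell cycle genes homology region, or CHR, a short element bound by the MuvB complex, and for CCAAT boxes bound by NF-Y. The stretches printed next were chosen because they hold these elements in the last 120 bases before the start site of genes whose values follow. Ccnb1 is a case without a match to the CHR spellings searched, and Espl1 is a gene that did not pass the test. Other spellings of the CHR were not searched, so a promoter without a match may still hold one. They come from RefSeq on GRCm38.p6, while the counts are on mm39, and capitals mark the CHR (TTTGAA or TTCGAA, or its complement TTCAAA) and the CCAAT box (or its complement ATTGG).
Cdk1: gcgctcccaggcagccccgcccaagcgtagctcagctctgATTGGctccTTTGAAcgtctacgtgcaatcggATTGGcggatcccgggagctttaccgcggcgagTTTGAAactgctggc
Cdc20: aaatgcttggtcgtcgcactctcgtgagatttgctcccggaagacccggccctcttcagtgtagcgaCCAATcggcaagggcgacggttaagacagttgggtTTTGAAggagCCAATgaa
Ube2c: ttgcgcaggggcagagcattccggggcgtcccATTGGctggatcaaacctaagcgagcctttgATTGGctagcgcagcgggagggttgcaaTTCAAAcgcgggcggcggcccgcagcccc
Kif11: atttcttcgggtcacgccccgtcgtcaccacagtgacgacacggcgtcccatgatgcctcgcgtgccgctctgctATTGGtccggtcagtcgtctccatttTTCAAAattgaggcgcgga
Prc1: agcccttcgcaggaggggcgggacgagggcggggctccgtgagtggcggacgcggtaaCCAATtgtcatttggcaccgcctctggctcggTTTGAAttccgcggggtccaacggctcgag
Top2a: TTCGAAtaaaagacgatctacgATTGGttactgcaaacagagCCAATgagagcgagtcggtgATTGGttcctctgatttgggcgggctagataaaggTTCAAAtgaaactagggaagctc
Ccnb1: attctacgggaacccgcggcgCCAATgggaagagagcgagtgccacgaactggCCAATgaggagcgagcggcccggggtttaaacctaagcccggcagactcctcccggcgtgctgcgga
Espl1: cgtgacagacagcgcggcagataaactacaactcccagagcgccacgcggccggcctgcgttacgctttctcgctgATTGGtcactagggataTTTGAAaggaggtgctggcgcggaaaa

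The Cdk1 stretch is chr10:69352913-69353032 on the minus strand. For Cdc20 it is chr4:118437344-118437463 on the minus strand. The Ube2c stretch is chr2:164769809-164769928 on the plus strand. For Kif11 it is chr19:37376262-37376381 on the plus strand. The Prc1 stretch is chr7:80294356-80294475 on the plus strand. For Top2a it is chr11:99024190-99024309 on the minus strand. The Ccnb1 stretch is chr13:100786487-100786606 on the minus strand. For Espl1 it is chr15:102296173-102296292 on the plus strand. Positions count back from the start site at the right-hand end, and each run reads 5′ to 3′ towards the gene. In Cdk1 the CHR nearest the start lies at -15 with CCAAT boxes at -48 and -80. The Kif11 CHR lies at -19 with CCAAT at -45, and in Prc1 they lie at -30 and -62. Another Prc1 promoter entry, with a different start site, puts them at -5 and -37. Ccnb1 has CCAAT boxes at -99 and -67.

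RefSeq promoters of 300 bases, 250 before the start and 50 after it, were matched to 39 of the 48 genes, giving 41 promoters. In 20 of the 41 the start site was also an outer end of the gene as listed by RefSeq. All positions are relative to the start site of the promoter entry. Aurkb, Ccna2, Cdc25c, Foxm1, Incenp, Kif20a, Smc4, Spc24 and Tpx2 had no entry. A CHR on either strand was present in 33 of the 41 promoters, or 80.5%, against 19.2% of all 32851 promoters and 14.5% of those of genes tested. CCAAT was present in 75.6% against 37.4%, and both elements in 70.7% against 7.52%. Promoters of the related lists described below hold these elements too. For other spindle and cytokinesis genes the CHR was in 62.5%, CCAAT in 65.6% and both in 43.8%. For other centromere and kinetochore genes these shares were 38.9%, 72.2% and 30.6%, and for S phase genes 16.3%, 58.1% and 11.6%. For anaphase-promoting complex genes they were 16.7%, 38.9% and 0%. An E2F site, spelled TTCGCGC or TTGGCGC on either strand, was present in 7 promoters, or 17.1%, against 3.89% of all promoters. Among promoters of genes tested the share was 6.40%, of S phase genes 34.9%, and of MuvB, E2F and pocket protein genes 42.1%. The second spelling can share bases with ATTGG. With only the bases before the start, the CHR was present in 16 of the 41 promoters of these genes and in 17.2% of all promoters, as 22 of the 44 CHR matches lie after the start.

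The 39 genes with a promoter entry were split by whether they held one of the CHR spellings searched. Over the 31 genes with a match the median log2 fold change was -0.83, and 28 of them were lower. The 8 genes without one, Nuf2, Nusap1, Mybl2, Cenpe, Mad2l1, Pttg1, Birc5 and Ccnb1, had a median of -1.06, and 7 were lower. These medians are descriptions without a test, and a match is neither a bound site nor a cause. The split depends on the spellings and the window searched, and the 9 genes without a promoter entry are in neither group. It therefore cannot show whether the CHR goes with the size of the fall.

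**Figure D2:**
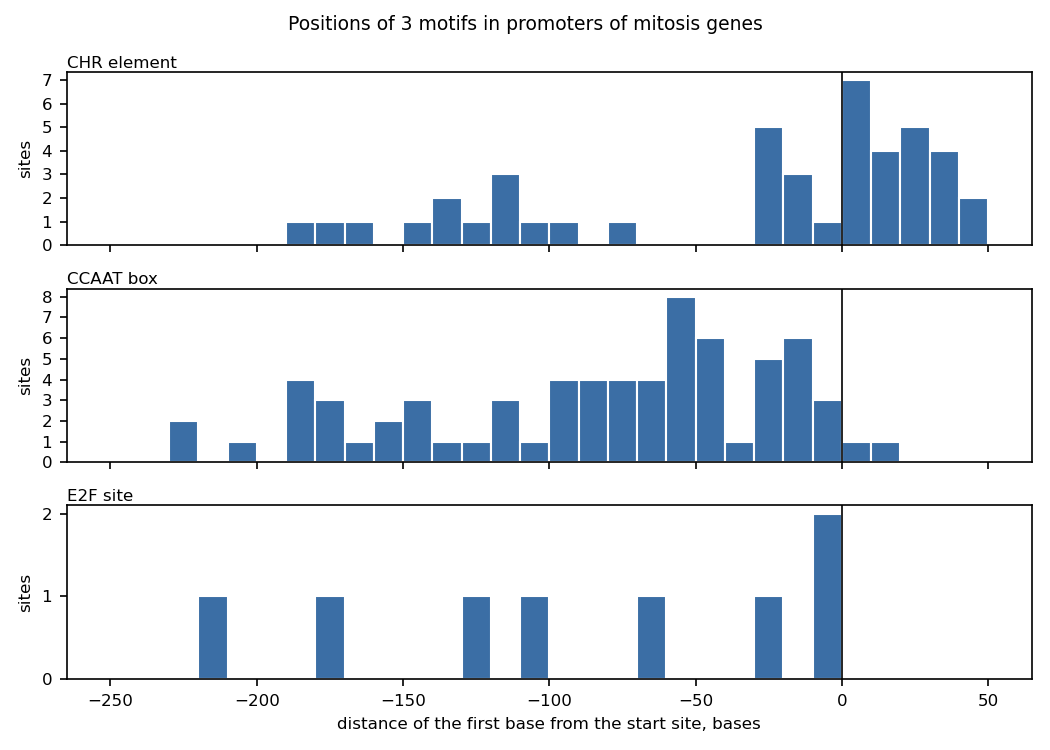
Positions of CHR, CCAAT and E2F matches relative to the start site in the 41 RefSeq promoters of these genes, in bases. Of the 44 CHR matches, 31 lie within 50 bases of the start.

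The cyclins, kinases and phosphatases comprised 8 genes, of which 6 were lower, with a median log2 fold change of -0.80. Cdk1, the kinase that triggers mitosis, had 546, 635 and 764 counts in control libraries 1 to 3 and 303, 389 and 353 in optimized libraries 1 to 3, the order used for all counts that follow. Its log2 fold change was -0.70 (SE 0.11, adjusted p = 0.000913 in edgeR's quasi-likelihood test), and the conditions did not overlap. Its partner Ccnb1, cyclin B1, had 257, 291 and 308 counts against 123, 110 and 135, a log2 fold change of -1.02 (SE 0.147, adjusted p = 0.000512). Here too every optimized library lay below every control library. Ccnb2, cyclin B2, changed by -0.65 (adjusted p = 0.0125) and lost its call without control library 2 (adjusted p = 0.060). Ccna2, the cyclin of S phase and G2, changed by -1.01 from 26.3 ± 2.90 to 13.1 ± 0.283 CPM (n = 3).

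Plk1, the polo-like kinase of centrosomes and kinetochores, had 190, 221 and 242 counts against 47, 90 and 96, with a log2 fold change of -1.29 (SE 0.228, adjusted p = 0.00185). Optimized library 1 was the lowest, and the conditions did not overlap. Aurka, the Aurora kinase of the spindle poles, changed by -0.90 (adjusted p = 0.00379). The phosphatases that activate Cdk1 were the 2 genes of this group that did not pass. Cdc25b had 331, 352 and 346 counts against 342, 342 and 288, with a log2 fold change of 0.11 (SE 0.113, adjusted p = 0.529), and its sign turned under library size alone and in 3 limma fits. Cdc25c had 33, 22 and 26 counts against 11, 13 and 20, with a log2 fold change of -0.69 (SE 0.377, adjusted p = 0.213). In both phosphatases the scaled values of the conditions overlapped, and for Cdc25c so few counts leave a wide error.

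The spindle checkpoint genes comprised 4 kinases and adaptors, of which 3 were lower, with a median of -0.62. Bub1, a checkpoint kinase, had 227, 237 and 195 counts against 116, 136 and 121, with a log2 fold change of -0.64 (SE 0.16, adjusted p = 0.013). Mad2l1, the Mad2 protein that inhibits Cdc20, changed by -0.78 (adjusted p = 0.00992), and Bub1b, or BubR1, by -0.40 (adjusted p = 0.0267). Bub1 lost its call without control library 1 or control library 2 (adjusted p = 0.0613 and 0.0614), and Bub1b without any of the 3 control libraries or optimized library 2 (adjusted p up to 0.0973). Ttk, the Mps1 kinase upstream of the checkpoint, had 62, 72 and 92 counts against 57, 36 and 36 and did not pass, with a log2 fold change of -0.60 (SE 0.259, adjusted p = 0.117). Its optimized library 1 stood close to the controls, and without that library the adjusted p-value was 0.0155. With all 6 libraries Ttk was also called lower in limma on log2(FPKM + 1) and on log2(FPKM + 0.1) (adjusted p = 0.0381 and 0.0490).

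All 8 kinetochore genes were lower, with a median of -0.94. Nuf2 and Ndc80, which form the microtubule-binding end of the Ndc80 complex, were among the lowest genes. Nuf2 had 188, 241 and 217 counts against 66, 64 and 66, a log2 fold change of -1.52 (SE 0.16, adjusted p = 6.54e-05). Ndc80 had 185, 183 and 194 counts against 60, 84 and 57, a log2 fold change of -1.30 (SE 0.165, adjusted p = 0.000228). Neither gene overlapped between conditions. The other 2 subunits of the complex, Spc24 and Spc25, changed by -1.30 and -0.80, the former on 14 to 73 counts per library (SE 0.306). Cenpf, a large coat protein of the kinetochore, changed by -1.05 (adjusted p = 0.0229), with control counts that spread from 95 to 173, and was not called without control library 1, control library 2, optimized library 2 or optimized library 3 (adjusted p up to 0.0994). Knl1, the scaffold that recruits Bub1, changed by -0.83 and was not called without control library 1 (adjusted p = 0.0556). Cenpe, a kinetochore kinesin, changed by -0.75 and Cenpa, the histone H3 variant that marks centromeres, by -0.70.

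The chromosomal passenger complex corrects faulty attachments and later moves to the cleavage site, and its 4 genes were all lower, with a median of -1.02. Its kinase Aurkb had 295, 323 and 355 counts against 137, 138 and 135, a log2 fold change of -1.05 (SE 0.116, adjusted p = 9.13e-05). Birc5, or survivin, had 195, 271 and 241 counts against 70, 98 and 79, a log2 fold change of -1.33 (SE 0.165, adjusted p = 0.000196). In both genes the optimized libraries lay well apart from the controls. Cdca8, or borealin, changed by -0.98 and the scaffold Incenp by -0.89.

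Spindle motors and assembly factors all passed the test, and all 6 had a log2 fold change under -1, with a median of -1.10. Kif11, the motor that pushes spindle poles apart, had 299, 324 and 326 counts against 159, 131 and 117, a log2 fold change of -1.03 (SE 0.147, adjusted p = 0.000485), with no overlap between conditions. Hmmr, a spindle pole protein, changed by -1.28, Nusap1, a microtubule bundling protein, by -1.11, and Tpx2, the activator of Aurka, by -1.11. The chromosome-bound motor Kif4 changed by -1.10 and the microtubule depolymerase Kif2c by -1.01.

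Cytokinesis genes were lower in 6 of 6 cases, with a median of -1.06, and held the lowest gene of the 48. Kif23, the motor of the centralspindlin complex, had 259, 320 and 289 counts against 57, 78 and 65, a log2 fold change of -1.93 (SE 0.154, adjusted p = 9.79e-06). Its level was 11.6 ± 1.27 CPM in control and 3.05 ± 0.320 CPM in optimized libraries (n = 3), with a wide gap between the conditions. In the edgeR fit it was 3.80-fold lower. Racgap1, the partner of Kif23 in centralspindlin, changed by -0.67 (adjusted p = 0.00175). Prc1, which bundles the central spindle, had 350, 368 and 389 counts against 145, 150 and 171, a log2 fold change of -1.05 (SE 0.13, adjusted p = 0.000183), without overlap. Anln, the actin-binding protein of the contractile ring, changed by -1.08 and Ect2, the activator of RhoA at the cleavage site, by -1.07. Kif20a, a central spindle motor, changed by -0.48 and was not called without control library 2 (adjusted p = 0.0513).

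**Figure D3:**
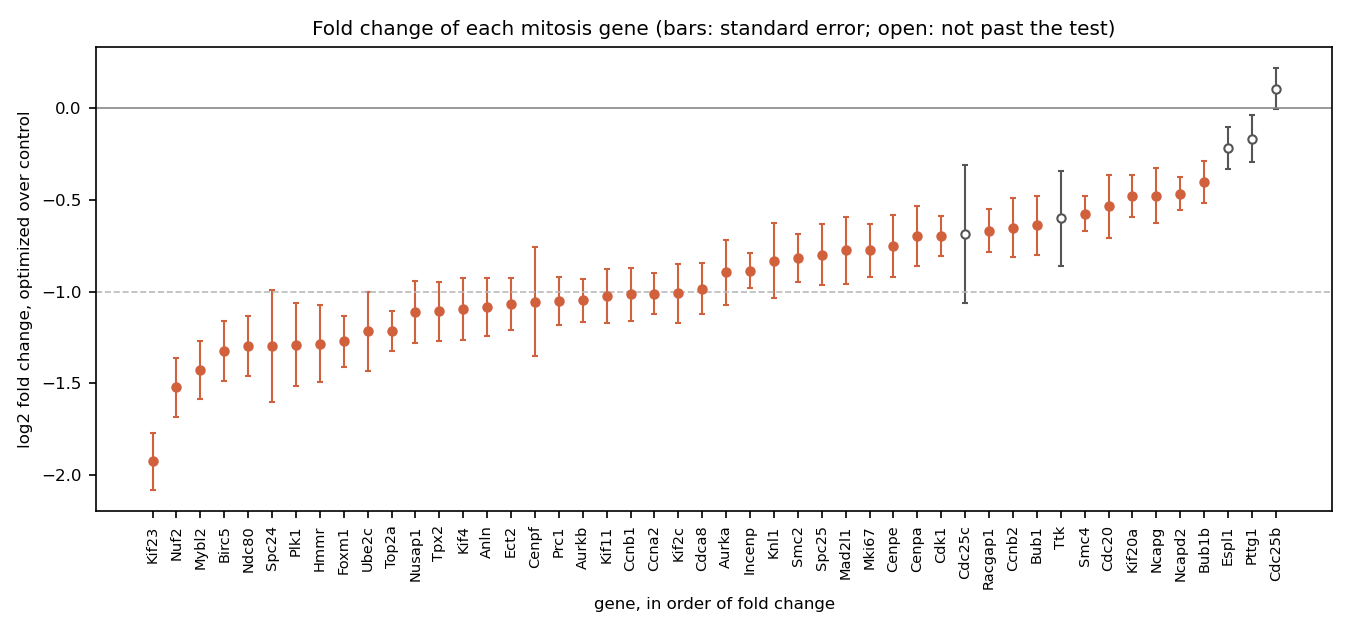
Log2 fold change, optimized minus control, of each of the 48 genes with its standard error, in order of fold change. Kif23 lies lowest at -1.93, Cdc25b is the gene above 0 (below 0 under library size alone and in limma on FPKM), and Cdc25c, Ttk, Espl1, Pttg1 and Cdc25b are the genes that did not pass.

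Chromosome structure and separation genes showed the smallest median, -0.53, with 6 of 8 lower. Top2a, the topoisomerase that untangles sister chromatids, had 1209, 1294 and 1240 counts against 502, 454 and 454, a log2 fold change of -1.22 (SE 0.11, adjusted p = 2.26e-05). Mki67, which coats mitotic chromosomes and is the antigen of the Ki-67 stain, had 1059, 1003 and 1056 counts against 627, 467 and 497, a log2 fold change of -0.77 (SE 0.144, adjusted p = 0.00248). Neither gene overlapped between conditions. Among the condensin subunits, Smc4 had 1099, 1186 and 1210 counts against 731, 695 and 625, a log2 fold change of -0.58 (SE 0.0954, adjusted p = 0.00122), also without overlap. Smc2 changed by -0.82, Ncapd2 by -0.46 and Ncapg by -0.48. Ncapg was not called without control library 1 or 2 or optimized library 2 or 3 (adjusted p up to 0.149).

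The enzyme and inhibitor of sister separation were the other 2 genes of this group. Espl1, or separase, which cleaves cohesin, had 352, 384 and 352 counts against 278, 287 and 257, with a log2 fold change of -0.22 (SE 0.116, adjusted p = 0.203). Pttg1, or securin, which holds separase inactive, had 373, 395 and 485 counts against 292, 412 and 276, with a log2 fold change of -0.16 (SE 0.127, adjusted p = 0.379). The scaled values of both genes overlapped between conditions, and Pttg1 was called lower in the limma fit limited to a mean FPKM of at least 1 (adjusted p = 0.0484).

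Both genes of anaphase ubiquitination were lower. Ube2c, the ubiquitin-conjugating enzyme of the anaphase-promoting complex, had 209, 182 and 200 counts against 58, 108 and 59, a log2 fold change of -1.22 (SE 0.217, adjusted p = 0.00191). Cdc20, the mitotic activator of that complex, had 179, 140 and 207 counts against 104, 124 and 90, a log2 fold change of -0.53 (SE 0.171, adjusted p = 0.0399). Neither overlapped after scaling, but Cdc20 was not called without control library 1, control library 3 or optimized library 3 (adjusted p up to 0.144).

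Both transcription factors that bind the MuvB complex to switch on mitotic genes were lower. Mybl2, or B-Myb, had 189, 180 and 212 counts against 61, 60 and 67, a log2 fold change of -1.43 (SE 0.159, adjusted p = 9.38e-05). Foxm1 had 343, 343 and 336 counts against 135, 120 and 116, a log2 fold change of -1.27 (SE 0.139, adjusted p = 8.46e-05). The conditions lay apart in both.

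Across the 48 genes, leaving out control library 1 or control library 2 gave 37 lower, and leaving out optimized library 1 gave 44. In FPKM, which is per gene length, the mean levels in control libraries ran from 0.351 for Knl1 to 19.3 for Incenp, with a median of 3.81, and in optimized libraries from 0.179 to 9.48, with a median of 1.80. The order of the genes by level was similar in both conditions, with a Spearman correlation of 0.94 between the mean FPKM values, across genes that share libraries and are not independent. The correlation between control FPKM and log2 fold change was 0.18.

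**Figure D4:**
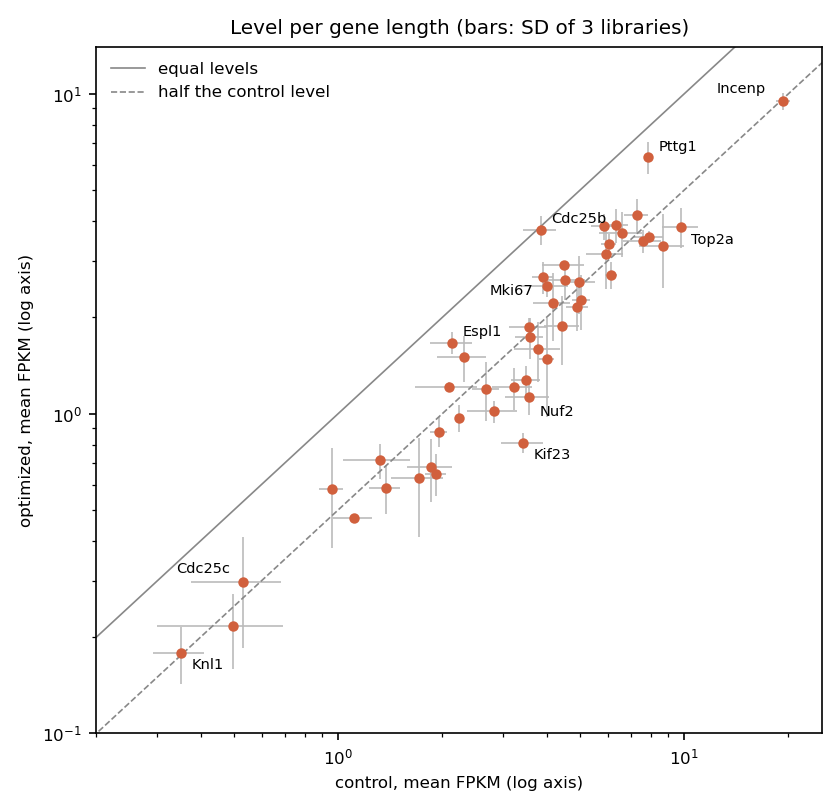
Mean FPKM of the 48 genes in control against optimized libraries, both on log axes, with SD over 3 libraries. Incenp lies highest, at 19.3 and 9.48, and Knl1 lowest, at 0.351 and 0.179.

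Reads that fall where exons of different genes overlap could be counted for either gene or for neither. The strand setting and the handling of such reads are not given in the sources used here. In GENCODE M39 on GRCm39, 21 of the 48 genes share exon bases with another listed gene, and 14 share them with a gene that has at least 0.2 times their count. Cdc20 shares 53 bases with Elovl1, which had 19.3 times its counts, and Kif20a shares 2748 bases with Cdc23, which had 2.24 times its counts. Pttg1 and Cdc25b, which did not pass the test, are also among those 14. Pttg1 shares 220 bases with Slu7, which had 3.56 times its counts, and Cdc25b shares 190 bases with Spef1, at 0.227 times. Of the 34 genes left without those 14, 31 were lower, with a median of -1.01 and a highest value of -0.22. Kif23 lies on chromosome 9 at 61823187 to 61854074 and Top2a on chromosome 11 at 98883769 to 98915062, and Mki67 lies on chromosome 7 at 135291513 to 135318299.

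Other genes of the cell cycle were taken from lists written for this purpose, with earlier results of these data known. Their counts in edgeR stand beside 15.2% lower and 14.7% higher over all genes tested. Counts at an unadjusted p-value, in DESeq2 and in limma stand beside the counts over all genes tested given above. Of 46 S phase genes, which copy DNA and supply nucleotides, 36 were lower and 0 higher in edgeR, with a median of -0.78. At an unadjusted p-value under 0.05 they were 40 lower and 0 higher, and DESeq2 and limma gave 36 and 42 lower with 0 higher. Uhrf1, which maintains DNA methylation at forks, was the lowest at -1.82 and Cdt1, the licensing factor, the highest at 0.0067. Of 39 other spindle and cytokinesis genes, 29 were lower and 0 higher, with a median of -0.88, against 33 and 2 at an unadjusted p-value under 0.05, 29 and 0 in DESeq2 and 33 and 0 in limma. Shcbp1, a midbody protein, lay at -1.67 and Cks2, a Cdk1-binding protein, at 0.55 (adjusted p = 0.0613). Of 33 other centromere and kinetochore genes, 14 were lower, Cenpm lowest at -1.41, and Cenpo was higher at 0.75, with a list median of -0.77. At an unadjusted p-value under 0.05 that list had 23 lower and 1 higher, in DESeq2 15 and 1, and in limma 22 and 1.

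Lists of the machinery that mitosis shares with other phases had medians nearer 0. Of 16 anaphase-promoting complex genes, Anapc5 was lower at -0.23 and Anapc15 higher at 0.86, with a median of -0.056. The lowest gene, Ube2s, lay at -0.34 and did not pass (adjusted p = 0.169). Of 13 other cohesin and condensin genes, the condensin subunit Ncaph (-0.61) and the cohesin subunit Smc1a (-0.29) were lower and the condensin II subunit Ncapg2 was higher (0.50), with a median of -0.097. Lower genes were 6.25% of the anaphase-promoting complex list and 15.4% of the cohesin and condensin list, against 15.2% of all genes tested. Each list had 1 higher gene, where 14.7% of all genes tested were higher. Smc1a was named after its value was seen.

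Among 18 genes of the MuvB complex, the E2F factors and the pocket proteins, 8 were lower and 2 higher, with a median of -0.24. E2f7, a repressor, was the lowest at -1.26 (SE 0.301, adjusted p = 0.0104). E2f2, an activator, had 112, 133 and 108 counts against 388, 381 and 307, a log2 fold change of 1.79 (SE 0.152, adjusted p = 1.45e-05), and each optimized library lay above each control library. The other higher gene, E2f3, was named after its value was seen and changed by 0.54.

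Of 13 CDK inhibitors, D-type cyclins and their kinases, 12 could be tested, 8 were lower and 0 higher in edgeR, with the same counts at an unadjusted p-value under 0.05, in DESeq2 and in limma. Cdkn1a, the p21 inhibitor that restrains division, had 4152, 4729 and 5265 counts against 1578, 2212 and 1969, a log2 fold change of -1.10 (SE 0.106, adjusted p = 3.45e-05). Ccnd1, or cyclin D1, which carries cells through G1, had 6439, 6129 and 6842 counts against 2711, 2817 and 2692, a log2 fold change of -1.05 (SE 0.0869, adjusted p = 1.28e-05). A gene that restrains the cycle and a gene that promotes it were both lower, without overlap between conditions. The kinase Cdk6 changed by -1.34, the inhibitors Cdkn2c by -0.999, Cdkn2b by -0.92 and Cdkn2a by -0.62, and the cyclins Ccnd2 by -0.59 and Ccnd3 by -0.40. Values for Cdk2 (-0.17), Cdkn1b (0.03), Cdk4 (0.07) and Cdkn2d (0.28) did not pass. Cdkn1c, with 0 to 4 counts per library, was not tested.

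**Figure D5:**
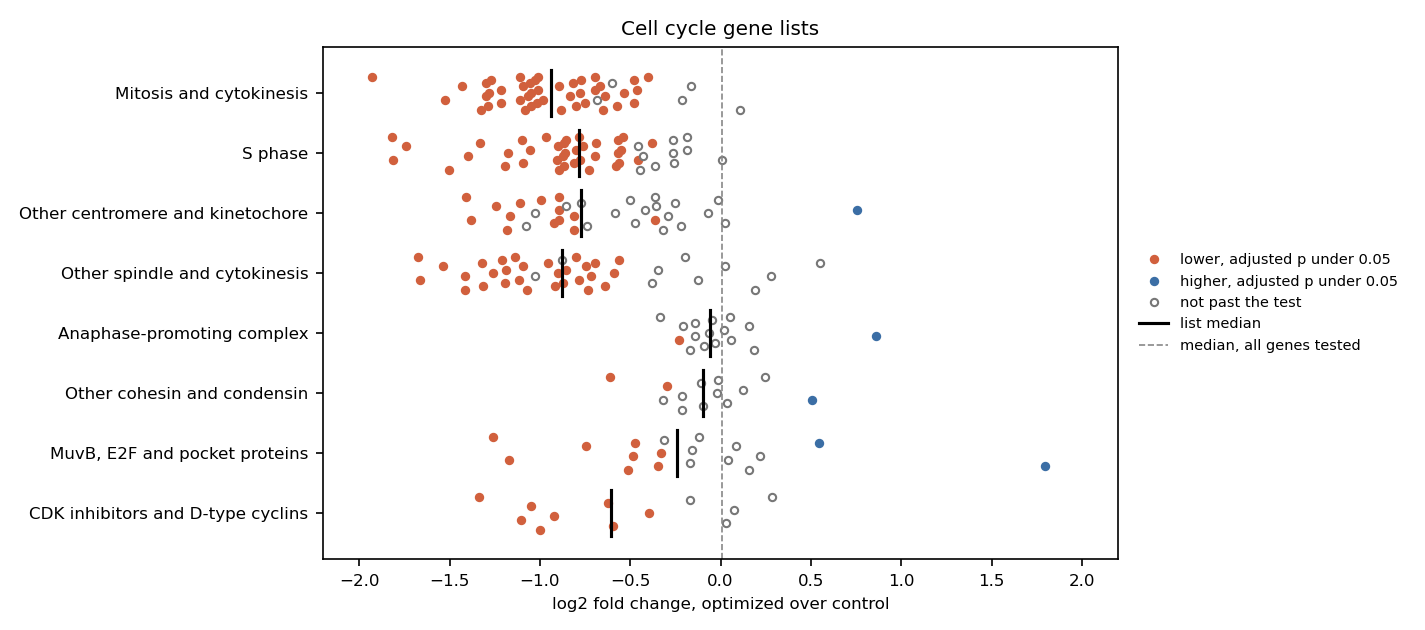
Log2 fold change, optimized minus control, of the genes in each list, with the list median. The 48 mitosis and cytokinesis genes have a median of -0.94 and the S phase genes -0.78, while the anaphase-promoting complex genes have a median of -0.056 and E2f2 is at 1.79.

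Cell type markers were summed as scaled CPM in each library. Of the 10 microglia markers 9 were listed, and they summed to 8544-9277 CPM in control and 13156-17211 CPM in optimized libraries, with 6 higher and 2 lower. Csf1r, the receptor for M-CSF and IL-34, changed by -0.39 and Aif1, or Iba1, by -0.45, while Tmem119 changed by 3.94. The 8 astrocyte markers summed to 38.3-40.0 against 26.2-31.2 CPM, a fall carried by Aldh1l1, which went from a mean of 16.5 to 4.63 CPM and alone passed the test. Of the 8, 4 had a negative and 4 a positive log2 fold change. Of the 6 markers of other myeloid cells, summing to 308-351 against 60.4-70.5 CPM, Mrc1 held nearly all counts and was lower at -2.40. In the same list S100a8 was higher at 3.59 (adjusted p = 0.000389), on 2 to 72 counts per library, and S100a9 was at 0 in all 6 libraries. The 5 oligodendrocyte precursor markers summed to 38.7-51.8 against 449-631 CPM, carried by Cspg4, and the 6 oligodendrocyte markers to 135-151 against 164-201 CPM. The 6 neuron markers summed to 3.07-4.72 against 5.30-6.33 CPM, and the 5 endothelial markers to 4.41-4.81 against 4.76-6.28 CPM, with Cldn5 at 0 in 5 of 6 libraries. The 6 fibroblast markers summed to 32.5-46.4 CPM in control and to 45.3, 28.9 and 149 CPM in optimized libraries. Without optimized library 3, the highest, 40 of the 48 mitosis genes were lower, the same count as without optimized library 2, the lowest. The part of these cells in the result was not tested.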

How the data were processed

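RNA-seq was performed on 3 control and 3 optimized libraries of mouse microglia. The authors aligned the reads with HISAT2 (mm39), assigned them to genes with featureCounts, and deposited the raw counts. They also deposited FPKM values, per gene length and library, for the same 41079 genes. Versions, annotation and strand setting are not given in the sources used here. Samples and columns were assigned from the labels.

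The test was edgeR's (version 4.0.16, R 4.3.3; filterByExpr, TMM factors, glmQLFit and glmQLFTest, no covariates), with Benjamini-Hochberg adjustment over 14618 genes and a threshold of 0.05. The steps were tested on simulated counts. Count totals between 20628148 and 27261839 limit genes with few counts. The common dispersion was 0.0164, a coefficient of variation of 0.128.

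The 48 genes, the related lists and the markers were chosen with earlier results of these data known. Every one of the 48 is named, with counts per library for 15 listed genes, the 3 lowest, the 3 highest and those that did not pass, and, for related lists, the lowest and highest gene and every CDK inhibitor and D-type cyclin. Promoters were from RefSeq (GRCm38.p6) and exon positions from GENCODE M39.

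Alternatives were DESeq2 1.42.0, RLE factors, scaling by library size only, no filter, at least 10 counts in every library, a replicate block, each library left out, and limma 3.58.1 on log2(FPKM + 1), on log2(FPKM + 0.1) and with a mean FPKM of at least 1. Pseudocounts understate the change of low genes. Leaving out genes that share exons was added after seeing the data.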

Additional observations from a re-analysis of the deposited data

How the results depend on the processing

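The 15 alternatives gave between 37 and 44 genes lower and 0 higher, of the 48 or, in limma with a mean FPKM of at least 1, of the 42 left after 6 were dropped. In the alternatives that tested them, 38 of the 48 genes kept their call. Leaving out a library gave 37 to 44 lower and medians from -0.96 to -0.90, with pooled spread for the condition left with 2 libraries, and 1646 to 2643 lower genes of all tested. The median of the 48 was -1.07 under library size alone, -0.71 in limma on log2(FPKM + 1), -1.01 with a pseudocount of 0.1, and -0.74 over the 42 with a mean FPKM of at least 1, where 1176 genes of all tested were higher. Adding a pseudocount shrinks the fold changes of low genes by construction. Without the 14 genes that share exons with a gene of at least 0.2 times their count, an alternative chosen after seeing the data, the median was -1.01. Cdc25b turned to -0.0206 under library size alone, -0.0259 in limma on log2(FPKM + 1), -0.0318 with a pseudocount of 0.1 and -0.0259 with a mean FPKM of at least 1, never past the threshold, and the cause was not tested. Whether same-numbered libraries were paired is not given in the labels. Deviations of same-numbered libraries from their condition means correlated at 0.27, -0.012 and 0.18, and not every library correlated best with its own number. Deviations from a mean of 3 libraries are not free of one another, so these correlations cannot settle pairing. With the replicate block 43 of the 48 were lower with a median of -0.94, and 2523 genes of all tested were lower and 2401 higher. Counting depth limits Cdc25c, with 125 counts over 6 libraries.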

Other observations

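Partners within a complex or pathway did not all move by the same amount. The ratios given here were chosen after the values were seen, some because the changes looked unequal, so they are descriptions without a test. Of the 11 pairs computed, the widest shift was in centralspindlin, where the log2 ratio of Kif23 to Racgap1 was -0.87, -0.83 and -1.01 in control libraries 1 to 3 and -2.17, -2.02 and -2.30 in optimized libraries 1 to 3. In the Ndc80 complex, the log2 ratio of Ndc80 to Spc25 was 0.33, -0.11 and -0.26 against -0.57, -0.47 and -0.56. The log2 ratio of Mki67 to Top2a, both used to mark dividing cells, was -0.19, -0.37 and -0.23 against 0.32, 0.04 and 0.13. By contrast, the condensin subunits Ncapd2 and Ncapg kept a mean log2 ratio of 1.75 in control and 1.76 in optimized libraries.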
